A study of Homo sapiens with 4 samples.

Results

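Fibroblast growth factor (FGF) signalling was described through 9 genes: the secreted ligands FGF3, FGF4, FGF19, FGF2 and FGF9, the receptors FGFR1, FGFR3 and FGFR4, and the carrier FGFBP1. The genes were looked up by symbol among the 58740 genes of the deposited table. They had been chosen by their measured values in these same libraries, so their levels are a description and no test was made on them. Of the 9 genes, 8 reached 1 FPKM (fragments scaled to transcript length and library size) in 1 or more libraries, and FGF4 was listed at 0 in all.

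RNA had been sequenced from spheroids of 4 established human colon lines, with 1 library per line. HCT116 and DLD-1 are colorectal carcinoma lines, and SW620 was derived from a lymph node metastasis of such a tumour. HCEC-1CT comes from non-cancerous colon and was immortalised with CDK4 and TERT; the labels call all 4 lines epithelial cells of WT genotype. No drug or other agent is named for any line: each was grown for 7 days in low-attachment plates of 24 wells, in DMEM with 10% fetal bovine serum, and RNA came from 2 pooled plates. A single library leaves no replicate error, and the 3 cancer lines are not replicates of one another. A difference between libraries here is a difference between those libraries.

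FGF ligands bind receptor tyrosine kinases at the cell surface, with heparan sulfate chains as a co-factor for most of them, and the receptors act mainly through RAS and MAP kinase. FGF19 is an exception: it works as a gut hormone that binds heparan sulfate weakly and uses the membrane protein beta-Klotho (KLB) with FGFR4. In the intestine many other FGF ligands are made by stromal cells and read by receptors on the epithelium.

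The libraries corresponded to about 25300000 fragments in HCT116, 23300000 in DLD-1, 28700000 in SW620 and 29500000 in HCEC-1CT, as read from the spacing of the lowest values. Over the 10409 genes with at least 1 FPKM in all libraries, the median log2 ratio to HCEC-1CT was 0.38 for HCT116, 0.41 for DLD-1 and 0.29 for SW620, and ratios given as deposited include that shift. The 7 epithelial markers summed to 1626 FPKM in HCT116, 5231 in DLD-1, 6804 in SW620 and 7.67 in HCEC-1CT, where EPCAM, CDH1, KRT19 and DSP were listed at 0. The 8 fibroblast markers summed to 12.7, 1.46 and 28.0 FPKM in the HCT116, DLD-1 and SW620 libraries and to 1019 FPKM in HCEC-1CT, where each of them passed 1 FPKM. The epithelial label of HCEC-1CT therefore went against its markers. Endothelial markers summed to between 0.824 and 15.8 FPKM and leukocyte markers to between 1.40 and 16.7 FPKM over the 4 libraries. The part of these differences in the results below was not tested, and fewer cells of a type cannot be told apart from less RNA per cell.

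The ligands split between the lines: FGF3 and FGF19 were high in SW620, FGF2 was high in HCEC-1CT, and DLD-1 held hardly any. Promoter sequences of RefSeq (GRCh38.p14, 250 bases before the start and 50 after) were used for 5 of the 9 genes, matched by symbol. FGF19, FGF4 and FGF9 had no entry, and FGFR1 was left out of the search, so its promoter was not examined. The promoters of FGF3, FGF2 and FGFBP1 are shown because these genes were each listed at 0 in at least 1 line and stood highest in a different line: FGF3 in SW620, FGF2 in HCEC-1CT and FGFBP1 in DLD-1. Capitals mark matches to the GC box GGGCGG and the CCAAT box CCAAT on either strand, and no 2 matches overlapped.
FGF3, chr11:69819367-69819666, minus strand: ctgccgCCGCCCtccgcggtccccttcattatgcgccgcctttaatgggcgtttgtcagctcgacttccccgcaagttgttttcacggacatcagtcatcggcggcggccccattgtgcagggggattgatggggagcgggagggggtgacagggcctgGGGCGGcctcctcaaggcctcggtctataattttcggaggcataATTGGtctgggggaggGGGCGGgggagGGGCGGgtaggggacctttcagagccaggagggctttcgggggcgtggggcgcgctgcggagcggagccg
FGF2, chr4:122826581-122826880, plus strand: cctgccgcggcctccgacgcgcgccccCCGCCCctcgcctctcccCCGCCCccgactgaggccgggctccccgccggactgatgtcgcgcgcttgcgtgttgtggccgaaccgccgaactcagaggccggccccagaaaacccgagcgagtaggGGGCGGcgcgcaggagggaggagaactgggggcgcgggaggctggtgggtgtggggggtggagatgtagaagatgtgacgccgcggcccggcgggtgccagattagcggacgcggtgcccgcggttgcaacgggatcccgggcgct
FGFBP1, chr4:15938691-15938990, minus strand: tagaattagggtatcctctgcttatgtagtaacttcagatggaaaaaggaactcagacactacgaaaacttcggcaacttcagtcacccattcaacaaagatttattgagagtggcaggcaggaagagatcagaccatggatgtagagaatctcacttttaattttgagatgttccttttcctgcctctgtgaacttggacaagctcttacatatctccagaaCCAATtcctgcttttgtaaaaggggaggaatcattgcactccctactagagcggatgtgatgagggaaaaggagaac

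The FGF3 window held 4 GC boxes, 1 CCAAT box and 26 CpG dinucleotides, and the FGF2 window held 3 GC boxes, 0 CCAAT boxes and 41 CpG. The FGFBP1 window differed, with 0 GC boxes, 1 CCAAT box and 3 CpG, and 42.0% G or C against 66.7% for FGF3 and 74.7% for FGF2. Of all 35116 RefSeq promoter windows, 45.0% held a GC box and 34.6% a CCAAT box, and the median window had 14 CpG. The AP-1 motif TGANTCA, the TATA box TATAAA and the TCF/LEF motif ATCAAAG matched none of the 3 windows; they were found in 7.71%, 11.5% and 2.62% of all windows. These are letters in a window and not binding sites. The RefSeq start of FGF3 lies upstream of the start that GENCODE 29 gives.

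FGF3 (ENSG00000186895, chromosome 11, 69809969 to 69819024, minus strand, hg38), a ligand of embryonic tissues that signals through IIIb forms of the receptors, was listed at 0 FPKM in HCT116, 0 in DLD-1, 102.7 in SW620 and 0 in HCEC-1CT. The SW620 value stands for about 3378 fragments, with a 95% Poisson interval of 99.3 to 106 FPKM that covers counting error only. FGF3 ranked 436th by FPKM among 19892 protein-coding genes in the SW620 library. The coding transcript FGF3-201 carried 99.2% of it.

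FGF19 (ENSG00000162344, chromosome 11, 69698232 to 69704642, minus strand) stood at 11.7 FPKM in HCT116, 0 in DLD-1, 107.0 in SW620 and 0 in HCEC-1CT. SW620 was 9.12-fold above HCT116, and the other 2 libraries listed the gene at 0. In SW620 the interval of FGF19, 105 to 109 FPKM, met that of FGF3 at its lower end. FGF4 (ENSG00000075388, chromosome 11, 69771016 to 69775403, minus strand), a ligand known from the early embryo, was listed at 0 in HCT116, DLD-1, SW620 and HCEC-1CT alike.

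**Figure D1:**
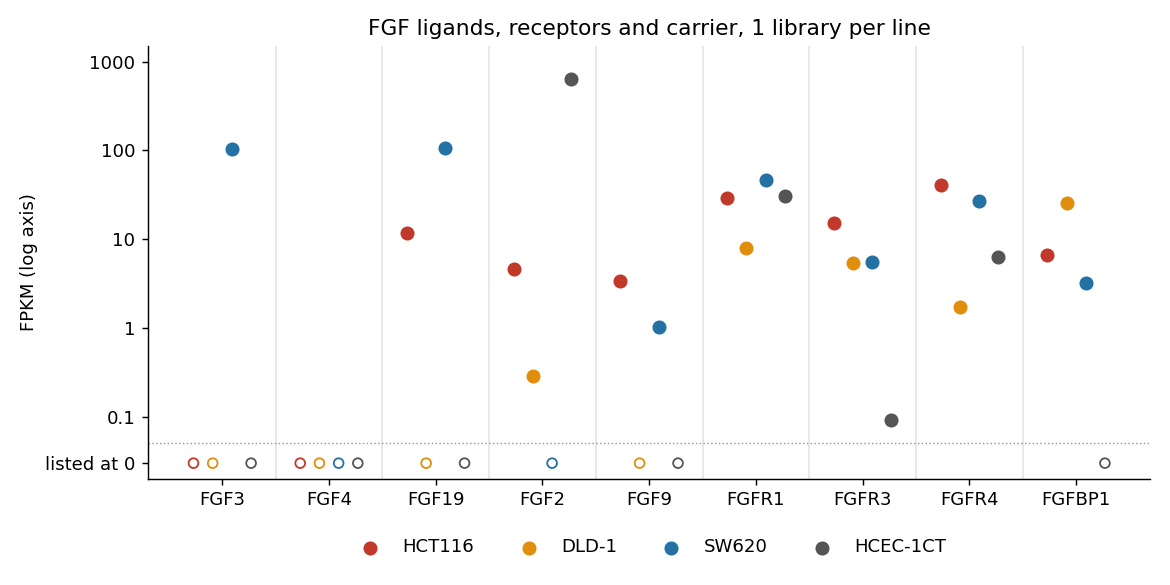
FPKM of the 9 genes (log axis) in the HCT116, DLD-1, SW620 and HCEC-1CT libraries; each point is 1 library, and open points at the bottom mark values listed at 0. FGF3 has a point above 0 only in SW620 (102.7 FPKM), FGF2 reaches 630.4 FPKM in HCEC-1CT, and FGF4 has no point above 0.

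FGF19, FGF4 and FGF3 lie in that order within 120.8 kb, with gaps of 66.4 kb and 34.6 kb, so FGF4, listed at 0, lies between the genes that were high in SW620. Between TPCN2 and CTTN the table has 42 genes, of which 21 reached 1 FPKM in 1 or more libraries. Of those 21, 5 stood 4-fold above each of the other 3 lines in SW620, against 1.57% of the 18637 genes measured at 1 FPKM or more: FGF19, FGF3, the long noncoding RNA AP003555.3, the chloride channel gene ANO1 and its antisense gene ANO1-AS1. FGF3 and FGF19 were chosen for this pattern, so the count is a description.

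ANO1, whose gene body begins 259.3 kb from FGF3, had 9.63 FPKM in HCT116, 0.424 in DLD-1, 123.8 in SW620 and 0.0484 in HCEC-1CT, so it was high in the same pair of libraries as FGF19. AP003555.3 was listed at 0 FPKM in HCT116 and in DLD-1, at 3.59 in SW620 and at 0.00395 in HCEC-1CT. ANO1-AS1 overlaps ANO1 on the other strand and stood at 0.424 FPKM in HCT116, 0 in DLD-1, 5.73 in SW620 and 0 in HCEC-1CT. No source used here says whether the counting used strand, so reads of the overlapping pair cannot be told apart.

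Of 9 further coding genes looked up around these 3, ANO1 and MYEOV were 4-fold higher in HCT116 and in SW620 than in HCEC-1CT. That was 22.2% of the 9 in each line, beside 9.04% and 8.93% of all genes. None was called in DLD-1, beside 9.24% of all genes higher and 5.57% lower. With 9 genes, nothing follows from these shares. MYEOV, named after its values were seen, had 11.3 FPKM in HCT116, 7.51 in DLD-1, 17.8 in SW620 and 1.21 in HCEC-1CT. CCND1, the cyclin D1 gene 43.8 kb from FGF19, had 53.4 FPKM in HCT116, 125 in DLD-1, 70.7 in SW620 and 83.2 in HCEC-1CT. PPFIA1, a scaffold protein gene, had 31.7 FPKM in HCT116, 34.5 in DLD-1, 41.8 in SW620 and 25.9 in HCEC-1CT. CTTN, which encodes the actin-binding protein cortactin, had 79.1 FPKM in HCT116, 137 in DLD-1, 86.6 in SW620 and 126.8 in HCEC-1CT. In CCND1, PPFIA1 and CTTN the lines lay within 4-fold of each other, and of these 3 genes SW620 was highest only for PPFIA1. Among the other neighbours looked up, SW620 was highest for ANO1 and MYEOV, and also for TPCN2 and FADD, which were called in no line. ORAOV1 and SHANK2, also without a call, were highest in HCEC-1CT.

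**Figure D2:**
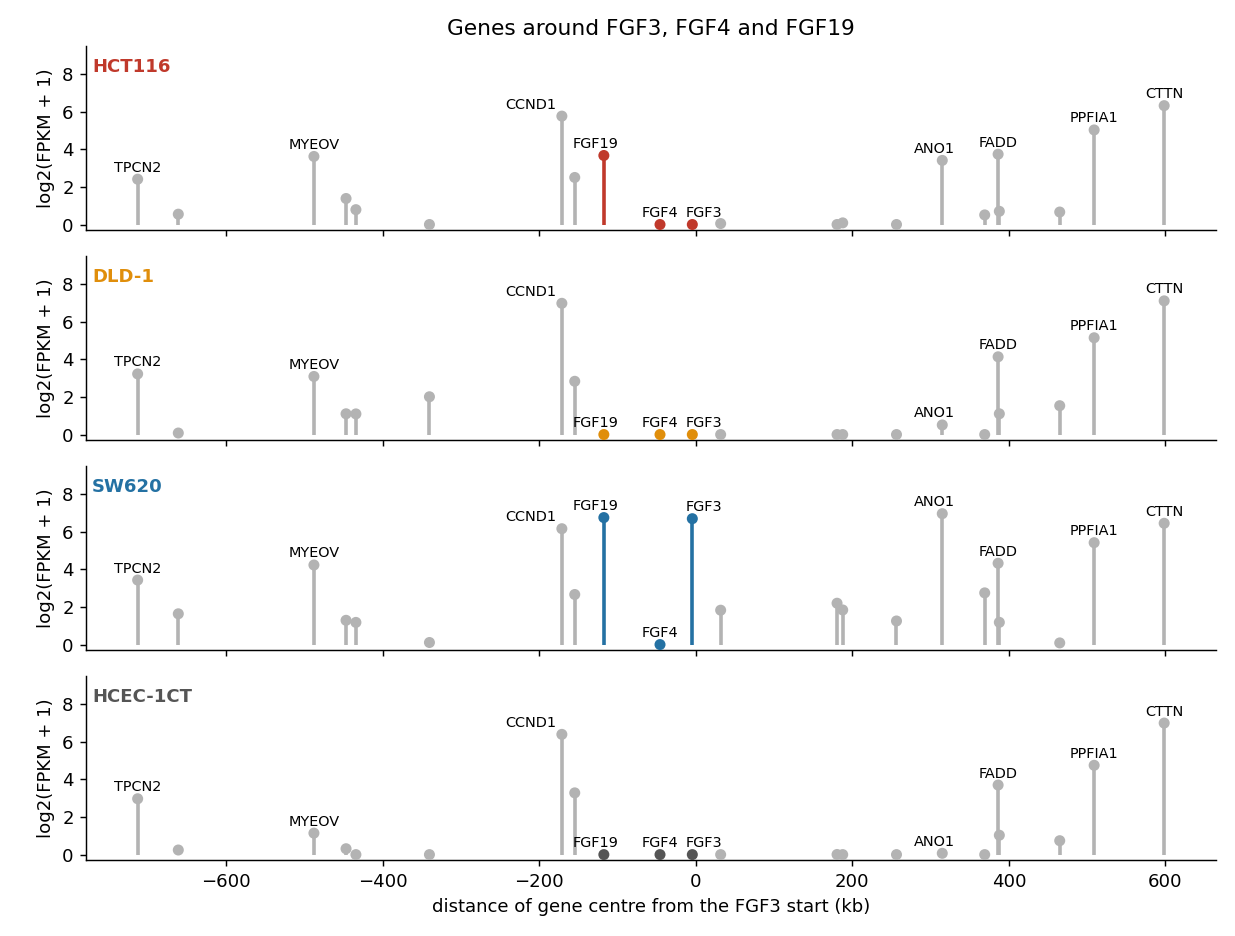
Levels as log2(FPKM + 1) of genes around FGF3 on chromosome 11 by distance of the gene centre from the FGF3 start in kb, 1 panel per library, for genes at 1 FPKM or more in 1 or more libraries plus FGF4; coloured points are FGF19, FGF4 and FGF3. FGF19, FGF3 and ANO1 are the tall points of SW620 that are at or near 0 in DLD-1 and HCEC-1CT, while CCND1 and CTTN are tall in all 4 panels.

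FGF2 (ENSG00000138685, chromosome 4, 122826708 to 122898236, plus strand), a heparin-binding ligand of many receptors and a mitogen for fibroblasts, had 4.64 FPKM in HCT116, 0.290 in DLD-1, 0 in SW620 and 630.4 in HCEC-1CT. The log2 ratio of FPKM plus 1 was -6.81 in HCT116 and -8.93 in DLD-1 relative to HCEC-1CT, and SW620 listed the gene at 0. HCEC-1CT was 136-fold above the next library, HCT116, and FGF2 ranked 33rd there among protein-coding genes. The lines did not overlap by counting error: about 526 fragments stood for FGF2 in HCT116, 46 in DLD-1 and 85188 in HCEC-1CT.

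The coding transcript FGF2-202 held 76.7% of the FGF2 level in HCT116 and 74.4% in HCEC-1CT, and FGF2-204 held 20.8% and 25.4% in the same libraries. All of the little that DLD-1 had was given to FGF2-201. NUDT6, which overlaps the end of FGF2 on the other strand, had 4.68 FPKM in HCT116, 1.95 in DLD-1, 1.24 in SW620 and 5.56 in HCEC-1CT. In HCT116 the levels of FGF2 and NUDT6 were close, and in DLD-1 FGF2 was the lower of the pair. Without knowing whether strand was used, reads of the overlap cannot be assigned.

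FGF9 (ENSG00000102678, chromosome 13, 21671383 to 21704498, plus strand), an epithelial ligand that acts on mesenchyme mainly through IIIc receptor forms, had 3.40 FPKM in HCT116, 0 in DLD-1, 1.03 in SW620 and 0 in HCEC-1CT. HCT116 was 3.30-fold above SW620, with intervals of 3.05 to 3.78 and 0.845 to 1.24 FPKM. Its highest level was the lowest of the 4 ligands among the 9 genes that were above 0 in any library.

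Over all 18 secreted FGF ligands, the summed level was 24.0 FPKM in HCT116, 2.30 in DLD-1, 220.7 in SW620 and 692 in HCEC-1CT. FGF19 made up 48.8% of the HCT116 sum, ahead of FGF2 with 19.3% and FGF9 with 14.1%. In DLD-1, 1 ligand passed 1 FPKM: FGF20, known from neural and tooth development, held 55.2% of that small sum. FGF19 held 48.5% and FGF3 46.6% of the sum in SW620. FGF2 held 91.0% of the sum in HCEC-1CT, followed by FGF7 with 6.45% and FGF5 with 2.41%. Of the 18 ligands 5 reached 1 FPKM in HCT116, 1 in DLD-1, 5 in SW620 and 3 in HCEC-1CT.

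Of the other 13 secreted ligands, FGF7 and FGF5 were 4-fold lower in every cancer line than in HCEC-1CT. FGF7, the keratinocyte growth factor that stromal cells make for epithelia, had 0.0289 FPKM in HCT116, 0 in DLD-1, 0.00318 in SW620 and 44.7 in HCEC-1CT; it has near-identical pseudogene copies, so its level is uncertain. FGF5, a ligand known for hair growth control, was listed at 0 in all 3 cancer lines and at 16.7 FPKM in HCEC-1CT. Fibroblast markers moved the same way: PDGFRA had 0.0180 FPKM in HCT116, 0 in DLD-1, 0.0102 in SW620 and 109.7 in HCEC-1CT, and its part in these ligand levels was not tested.

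FGF18, a ligand of cartilage and lung that is also a known Wnt target in colon cancer, had 1.17 FPKM in HCT116, 0.330 in DLD-1, 6.79 in SW620 and 0.220 in HCEC-1CT, so SW620 was the line that stood 4-fold higher, with a log2 ratio of 2.68. FGF20 had 0 FPKM in HCT116, 1.27 in DLD-1, 1.89 in SW620 and 0 in HCEC-1CT. FGF8, a patterning ligand of the embryo, had 1.91 FPKM in HCT116, 0.0716 in DLD-1, 0.119 in SW620 and 0.0567 in HCEC-1CT. The remaining 8 ligands stayed under 1 FPKM in every library. Among the intracellular FGF homologous factors, which do not act on the receptors, FGF13 had 0.0976 FPKM in HCT116, 0 in DLD-1, 0.681 in SW620 and 6.61 in HCEC-1CT.

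**Figure D3:**
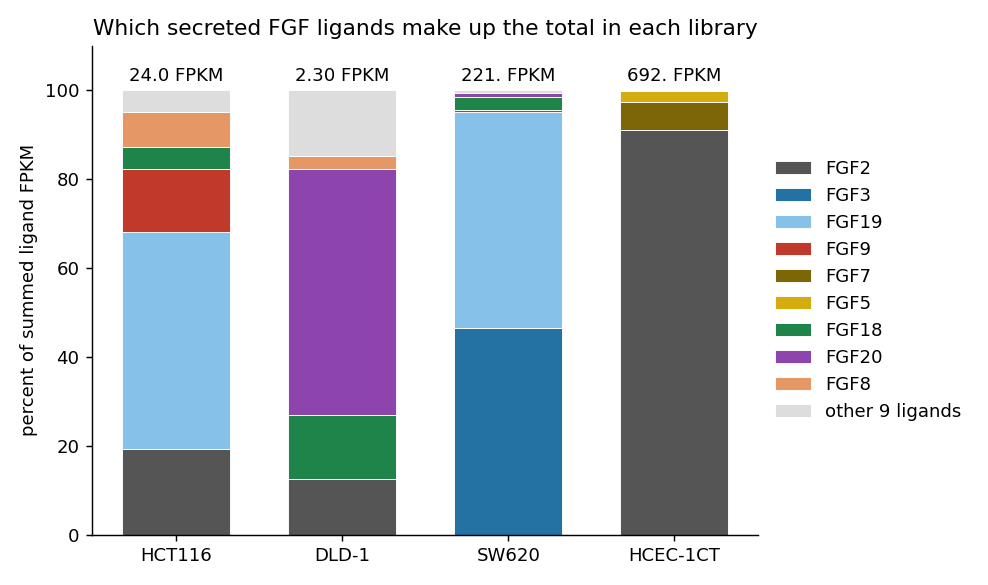
Percent of the summed FPKM of 18 secreted FGF ligands taken by each ligand in the HCT116, DLD-1, SW620 and HCEC-1CT libraries, with the sum above each bar. FGF2 fills 91.0% of the HCEC-1CT bar and FGF3 with FGF19 fill nearly all of the SW620 bar, while the DLD-1 bar stands for 2.30 FPKM in all.

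All 3 receptors among the 9 genes were above 0 in all 4 libraries. FGFR1 (ENSG00000077782, chromosome 8, 38411138 to 38468834, minus strand), a receptor of mesenchymal and many other cells, had 28.7 FPKM in HCT116, 7.91 in DLD-1, 46.7 in SW620 and 30.5 in HCEC-1CT. By gene total SW620 was highest and DLD-1 lowest, and the intervals of HCT116, 27.4 to 30.0 FPKM, and HCEC-1CT, 29.4 to 31.6 FPKM, overlapped. The log2 ratios to HCEC-1CT were -0.09 for HCT116, -1.82 for DLD-1 and 0.60 for SW620. After median-ratio scaling they were -0.46 for HCT116, -2.21 for DLD-1 and 0.31 for SW620, so the DLD-1 ratio then passed 4-fold.

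The coding transcript FGFR1-238 held 28.8% of the FGFR1 level in HCT116, 53.7% in DLD-1, 33.5% in SW620 and 49.3% in HCEC-1CT. Over coding transcripts alone its share was 77.1% in HCT116, 97.4% in DLD-1, 84.8% in SW620 and 91.4% in HCEC-1CT, so the same coding form led in all 4 libraries. FGFR1-215, a transcript with a retained intron, held 24.2% in HCT116, 0% in DLD-1, 15.5% in SW620 and 3.93% in HCEC-1CT. The antisense gene AC087623.2 overlaps FGFR1 and had between 0.445 FPKM in DLD-1 and 3.49 FPKM in SW620.

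FGFR3 (ENSG00000068078, chromosome 4, 1793293 to 1808872, plus strand), a receptor of epithelia and growing cartilage, had 15.3 FPKM in HCT116, 5.38 in DLD-1, 5.49 in SW620 and 0.0918 in HCEC-1CT. The log2 ratios to HCEC-1CT were 3.90 for HCT116, 2.55 for DLD-1 and 2.57 for SW620, and about 12 fragments stood behind the HCEC-1CT value. HCT116 lay 2.84-fold above DLD-1 and 2.78-fold above SW620. The intervals of DLD-1, 4.88 to 5.90 FPKM, and SW620, 5.06 to 5.96 FPKM, overlapped.

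FGFR3 and FGFR2, like FGFR1, are spliced to include either of a pair of exons, IIIb or IIIc. These form the last part of the ligand-binding domain: IIIb forms are typical of epithelia and IIIc forms of mesenchyme. The choice was read for FGFR3 and FGFR2 and was not examined for FGFR1. The FGFR3 pair from GENCODE 29 (GRCh38) is shown because the choice between these exons is what the transcript values report. Capitals mark bases that are identical where the exons are aligned.
FGFR3 IIIb exon, chr4:1802914-1803064, plus strand: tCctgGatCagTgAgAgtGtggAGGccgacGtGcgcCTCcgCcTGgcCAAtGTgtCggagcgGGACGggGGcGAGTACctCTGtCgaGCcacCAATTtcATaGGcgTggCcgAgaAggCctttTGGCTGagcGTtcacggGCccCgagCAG
FGFR3 IIIc exon, chr4:1803692-1803836, plus strand: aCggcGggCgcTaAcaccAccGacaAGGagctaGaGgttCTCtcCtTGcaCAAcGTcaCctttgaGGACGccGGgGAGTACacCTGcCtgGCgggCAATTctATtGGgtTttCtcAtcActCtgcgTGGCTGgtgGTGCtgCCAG

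The exons are 151 and 145 bases long, and 71 of 154 aligned positions were identical (46.1%). Transcripts with the IIIb exon alone held 5.30 FPKM in HCT116, 3.996 in DLD-1, 4.29 in SW620 and 0 in HCEC-1CT. Transcripts with the IIIc exon alone held 0.686 FPKM in HCT116, 0.131 in DLD-1, 0.196 in SW620 and 0 in HCEC-1CT. IIIb was the higher of these 2 forms in each cancer line, and its level varied less between them than the gene's total did.

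As a share of all FGFR3, IIIb transcripts made up 34.7% for HCT116, 74.3% for DLD-1 and 78.0% for SW620. The lower share of HCT116 came with 60.0% in transcripts that hold neither exon, among them FGFR3-206, which retains an intron and held 25.3% there, against 11.8% in DLD-1 and 9.60% in SW620. Over coding transcripts alone the IIIb share was 53.4% for HCT116, 96.1% for DLD-1 and 94.5% for SW620. Coding transcripts with neither exon held 38.6% of the coding level in HCT116 (3.83 FPKM) and 0% in DLD-1 and SW620. The lower HCT116 share was thus not a matter of retained introns alone. The few HCEC-1CT fragments were all given to a transcript that holds both exons.

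FGFR2, an epithelial receptor of the same family outside the 9 genes, had 6.79 FPKM in HCT116, 3.13 in DLD-1, 0.0492 in SW620 and 0 in HCEC-1CT. In HCT116 its IIIb transcripts held 55.9% and its IIIc transcripts 22.2%, while in DLD-1 the order was turned, with 7.00% IIIb and 54.1% IIIc. FGFR2-215, a IIIb transcript, held 50.4% of FGFR2 in HCT116 and 7.00% in DLD-1. FGFR2-202 held 0% in HCT116 and 29.8% in DLD-1, and FGFR2-227 held 11.9% in HCT116 and 22.4% in DLD-1. Transcripts with neither exon held 16.7% in HCT116 and 38.9% in DLD-1. The DLD-1 shares rest on about 181 fragments over the whole gene. Fewer of them can fall on either exon, and their number was not read.

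**Figure D4:**
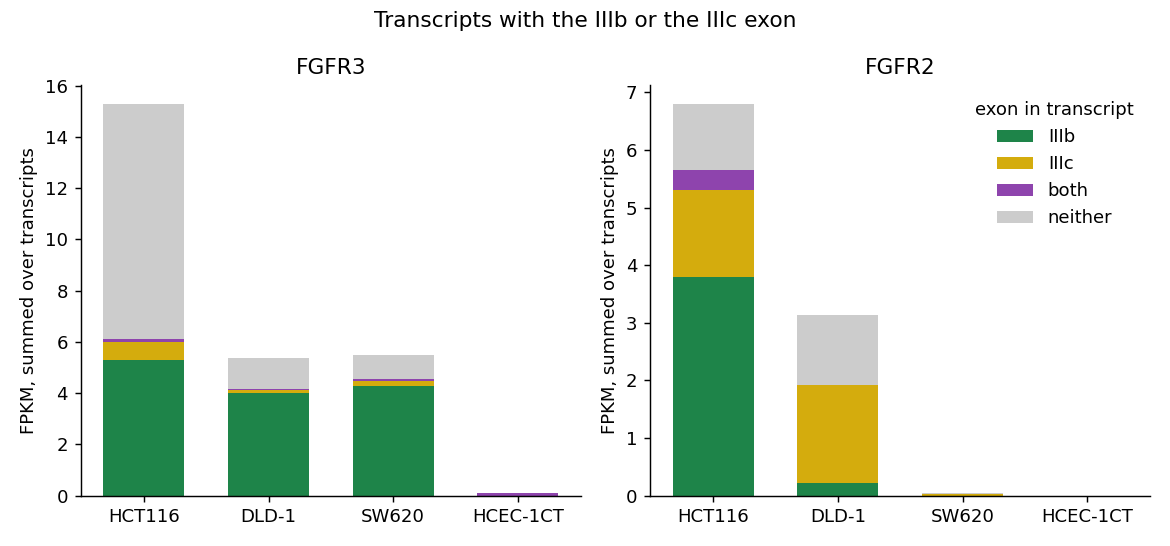
Summed FPKM of FGFR3 transcripts (left) and FGFR2 transcripts (right) that hold the IIIb exon, the IIIc exon, both or neither, in the HCT116, DLD-1, SW620 and HCEC-1CT libraries. FGFR3 transcripts with IIIb alone exceed those with IIIc alone in all 3 cancer lines, while transcripts with neither exon are the largest class in HCT116; for FGFR2 in DLD-1, IIIc exceeds IIIb.

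FGFR4 (ENSG00000160867, chromosome 5, 177086886 to 177098144, plus strand), the receptor that FGF19 uses in liver, had 40.3 FPKM in HCT116, 1.74 in DLD-1, 27.1 in SW620 and 6.22 in HCEC-1CT. The 4 levels lay apart beyond counting error, with intervals of 38.6 to 42.0 FPKM in HCT116, 1.30 to 2.28 in DLD-1, 25.9 to 28.4 in SW620 and 5.60 to 6.88 in HCEC-1CT. HCT116 was 6.48-fold and SW620 4.36-fold above HCEC-1CT, and DLD-1 lay below it at a ratio of 0.280. The log2 ratios of FPKM plus 1 were 2.52 for HCT116, -1.40 for DLD-1 and 1.96 for SW620, and after median-ratio scaling 2.17, -1.72 and 1.70 in the same lines.

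RefSeq gives FGFR4 a pair of starts, which are shown because transcripts of the table begin at each and the windows differ in make-up. Capitals mark the GC box GGGCGG on either strand, and no 2 matches overlapped.
FGFR4 start 1, chr5:177086665-177086964, plus strand: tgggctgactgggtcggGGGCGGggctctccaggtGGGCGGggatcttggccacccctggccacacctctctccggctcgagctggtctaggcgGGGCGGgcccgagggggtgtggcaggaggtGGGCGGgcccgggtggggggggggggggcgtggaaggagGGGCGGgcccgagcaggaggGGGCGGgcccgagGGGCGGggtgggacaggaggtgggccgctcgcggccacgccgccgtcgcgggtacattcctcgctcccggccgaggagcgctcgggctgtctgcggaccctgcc
FGFR4 start 2, chr5:177089300-177089599, plus strand: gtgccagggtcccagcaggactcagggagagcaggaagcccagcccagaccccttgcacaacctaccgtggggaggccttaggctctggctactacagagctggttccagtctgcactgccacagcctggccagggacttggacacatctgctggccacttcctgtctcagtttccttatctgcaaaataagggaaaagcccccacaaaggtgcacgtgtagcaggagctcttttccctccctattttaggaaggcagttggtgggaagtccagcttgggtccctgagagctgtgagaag

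The first window held 7 GC boxes and 30 CpG, and the second 0 GC boxes and 2 CpG; neither held a CCAAT box, TATA box, AP-1 or TCF/LEF motif as spelled above. For comparison, the FGFR3 promoter window held 8 GC boxes and 51 CpG, more CpG than 99.0% of all windows. Transcripts that begin at the first FGFR4 start held 69.6% of the gene's level in HCT116, 21.0% in DLD-1, 85.9% in SW620 and 79.0% in HCEC-1CT. Those at the second held 13.2% in HCT116, 28.7% in DLD-1, 7.70% in SW620 and 13.5% in HCEC-1CT. Only transcripts that begin close to a RefSeq start were counted, so these shares do not make up the whole gene. In DLD-1 the transcripts counted at neither start include FGFR4-215, with 22.7%. The DLD-1 library, which had about 52 FGFR4 fragments in all, was the only one of the 4 in which the second share was the larger. That second share was almost wholly the retained-intron transcript FGFR4-211, with 0.497 of 0.499 FPKM. FGFR4-211 is 1341 bases long, against 3122 for the coding FGFR4-201 at the first start. These FPKM shares are therefore not shares of fragments, and a different use of the starts in DLD-1 was not tested.

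By transcript, the coding FGFR4-207 held 41.4% in HCT116, 0% in DLD-1, 49.2% in SW620 and 65.4% in HCEC-1CT. The coding FGFR4-201 held 11.0% in HCT116, 19.6% in DLD-1, 28.2% in SW620 and 1.44% in HCEC-1CT. In DLD-1 the retained-intron transcripts FGFR4-211 and FGFR4-215 led with 28.6% and 22.7%, whereas they held at most 6.98% and 0.503% in the other libraries.

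Summed over FGFR1 to FGFR4, the receptor level was 91.0 FPKM in HCT116, 18.2 in DLD-1, 79.4 in SW620 and 36.8 in HCEC-1CT. FGFR4 led in HCT116 with 44.3%, while FGFR1 led in DLD-1 with 43.6%, in SW620 with 58.9% and in HCEC-1CT with 82.9%. FGFR3 held 16.8% in HCT116, 29.6% in DLD-1, 6.92% in SW620 and 0.249% in HCEC-1CT. DLD-1, the line with the lowest ligand sum, also had the lowest receptor sum.

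**Figure D5:**
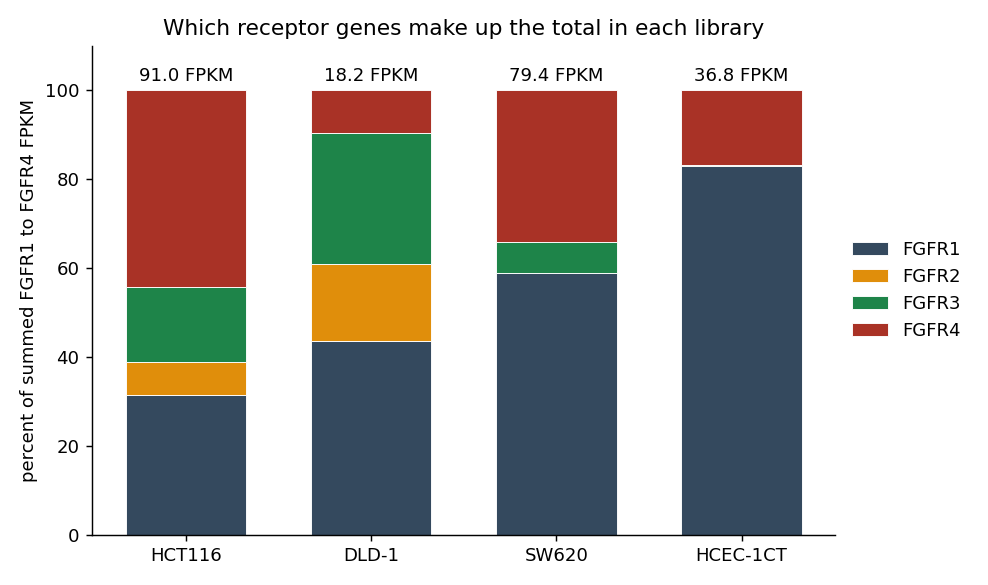
Percent of the summed FPKM of FGFR1 to FGFR4 taken by each receptor gene in the HCT116, DLD-1, SW620 and HCEC-1CT libraries, with the sum above each bar. FGFR4 takes 44.3% in HCT116 and FGFR1 takes 82.9% in HCEC-1CT.

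FGFRL1, a receptor relative without a kinase domain, was measured in all lines, with 32.6 FPKM in HCT116, 22.4 in DLD-1, 46.5 in SW620 and 11.6 in HCEC-1CT. The Klotho co-receptors stayed under 1 FPKM: KLB, through which FGF19 acts in liver, had 0.0386 FPKM in HCT116, 0.0563 in DLD-1, 0.303 in SW620 and 0.00837 in HCEC-1CT, and KL was at or below 0.102 FPKM in all 4 libraries. SW620, with the highest FGF19 level, thus held FGFR4 at 27.1 FPKM and KLB below 1 FPKM.

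FGFBP1 (ENSG00000137440, chromosome 4, 15935569 to 15938740, minus strand), a secreted carrier that frees FGF2 and other ligands from heparan sulfate, had 6.61 FPKM in HCT116, 25.4 in DLD-1, 3.17 in SW620 and 0 in HCEC-1CT. DLD-1 was 3.85-fold above HCT116 and 8.02-fold above SW620, and the intervals of the 3 lines did not overlap. It was the only one of the 9 genes with its highest level in DLD-1. HCEC-1CT, with the highest FGF2, listed the carrier at 0, and SW620, with FGF2 listed at 0, had the lowest carrier level of the cancer lines. The other carriers, FGFBP2 and FGFBP3, stayed under 1 FPKM in all libraries.

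By the rule of a 4-fold ratio of FPKM plus 1, 5 of the 9 genes were higher in HCT116 than in HCEC-1CT (FGF19, FGF9, FGFR3, FGFR4 and FGFBP1) and 1 was lower (FGF2), against 9.04% and 5.01% of all 18637 genes at 1 FPKM or more. In DLD-1, 2 genes were higher (FGFR3 and FGFBP1) and 1 lower (FGF2), against 9.24% and 5.57% of all genes. In SW620, 4 were higher (FGF3, FGF19, FGFR3 and FGFBP1) and 1 lower (FGF2), against 8.93% and 5.49%. FGF2 was the gene that set HCEC-1CT above each other line, as 2.99% of all genes did, and FGFR3 and FGFBP1 set it below them, as 2.68% did. The 3 comparisons share the HCEC-1CT library, and since the genes were chosen with these ratios known, nothing follows from the shares. FGF9 in HCT116 and FGFBP1 in SW620 lost their calls where 5 FPKM was asked of the higher library, and FGFR4 in HCT116 lost its call, at a log2 ratio of 1.80, where only the most abundant transcript was used. With a pseudocount of 5 FPKM the higher calls that remained numbered 1 for HCT116, 1 for DLD-1 and 2 for SW620. At the border of the rule, a log2 ratio of 2, FGFBP1 in SW620 lay just inside at 2.06 and FGFR4 in SW620 just outside at 1.96.

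Around the 9 genes, 78 further genes of the pathway were found in the table, besides the 9 chromosome 11 neighbours above, and 59 of the 78 reached 1 FPKM in 1 or more libraries. In HCT116, 10 of the 59 were 4-fold higher (16.9%) and 5 lower (8.47%) than in HCEC-1CT, beside 9.04% and 5.01% of all genes. In DLD-1, 4 were higher (6.78%) and 7 lower (11.9%), beside 9.24% and 5.57%. In SW620, 7 were higher (11.9%) and 5 lower (8.47%), beside 8.93% and 5.49%. The median log2 ratio of the 59 was 0 for HCT116, -0.30 for DLD-1 and 0.06 for SW620, beside 0.27, 0.33 and 0.21 for all genes in the same lines. The lists that follow hold 7 to 11 measured genes each, so 1 gene is 9.09% to 14.3% of a list.

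Among 11 measured heparan sulfate core proteins, which hold ligands at the cell surface, SDC1 and GPC4 were higher and SDC2 was lower in each cancer line, and the other 8 were called in none. SDC4, the most abundant, had 111 FPKM in HCT116, 119.7 in DLD-1, 219 in SW620 and 68.6 in HCEC-1CT, and AGRN, the gene of agrin, had 34.2 FPKM in HCT116, 94.95 in DLD-1, 54.1 in SW620 and 93.3 in HCEC-1CT. SDC1, the syndecan of epithelia, had 13.7 FPKM in HCT116, 49.4 in DLD-1, 29.9 in SW620 and 0.296 in HCEC-1CT. GPC4, a glypican, had 7.77 FPKM in HCT116, 3.18 in DLD-1, 12.1 in SW620 and 0 in HCEC-1CT. SDC2, the syndecan of mesenchyme, was listed at 0 in HCT116 and in DLD-1, at 0.00926 FPKM in SW620 and at 4.60 in HCEC-1CT.

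Of 11 measured heparan sulfate enzymes, 4 were higher in HCT116, 1 was lower in DLD-1 and 1 was higher in SW620. SULF2, which removes sulfate groups outside the cell, had 12.1 FPKM in HCT116, 0.0174 in DLD-1, 57.6 in SW620 and 0 in HCEC-1CT, and stood 4-fold above each other line in SW620. HS6ST2, a sulfotransferase, had 7.00 FPKM in HCT116, 0 in DLD-1, 0.0157 in SW620 and 0 in HCEC-1CT.

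None of the 10 adaptors and relay genes was called in any cancer line. PTPN11, the phosphatase SHP2, had 50.1 FPKM in HCT116, 37.0 in DLD-1, 52.2 in SW620 and 52.3 in HCEC-1CT, and the adaptor GRB2 had 72.2 FPKM in HCT116, 28.5 in DLD-1, 75.3 in SW620 and 25.8 in HCEC-1CT.

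Of 11 measured genes listed as feedback inhibitors, IL17RD was higher in every cancer line and DUSP4 in HCT116 and SW620. SPRY2 was lower in HCT116 and SPRY4 in DLD-1. The list median log2 ratio was -0.66 for HCT116, -0.50 for DLD-1 and -0.55 for SW620, below the medians of all genes given above. The 11 include FLRT2 and FLRT3, membrane proteins that bind FGF receptors and are not established as inhibitors. FLRT2 had a log2 ratio of -1.77 in each cancer line, and FLRT3 -0.88 for HCT116, -0.50 for DLD-1 and -0.12 for SW620. The medians were not recomputed without this pair, so they do not describe inhibitors alone. SPRY2, a Sprouty inhibitor of receptor tyrosine kinases, had 5.86 FPKM in HCT116, 16.3 in DLD-1, 47.7 in SW620 and 33.0 in HCEC-1CT. Its relative SPRY4 had 17.9 FPKM in HCT116, 8.44 in DLD-1, 15.6 in SW620 and 42.1 in HCEC-1CT. IL17RD, a membrane inhibitor of FGF signalling also called SEF, had 9.06 FPKM in HCT116, 7.79 in DLD-1, 3.55 in SW620 and 0.0544 in HCEC-1CT. DUSP4, a MAP kinase phosphatase, had 90.6 FPKM in HCT116, 2.68 in DLD-1, 75.0 in SW620 and 1.57 in HCEC-1CT, with high values in the 2 libraries that had FGF19. Its relative DUSP6, which acts on ERK, was called in no cancer line, with 35.4 FPKM in HCT116, 62.7 in DLD-1, 25.3 in SW620 and 37.5 in HCEC-1CT.

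Of 7 output transcription factors, MYC was higher in HCT116 and SW620, EGR1 was lower in SW620 and ETV1 was lower in DLD-1. MYC had 80.8 FPKM in HCT116, 17.5 in DLD-1, 57.8 in SW620 and 8.26 in HCEC-1CT. EGR1, an immediate early factor, had 43.9 FPKM in HCT116, 33.3 in DLD-1, 14.0 in SW620 and 133.7 in HCEC-1CT. ETV1 had 3.67 FPKM in HCT116, 0.176 in DLD-1, 7.50 in SW620 and 5.38 in HCEC-1CT. ETV5, a factor often read as an FGF target, had 31.1 FPKM in HCT116, 8.56 in DLD-1, 42.1 in SW620 and 15.5 in HCEC-1CT, with no call in any line.

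The genes most like each of the 8 measured members over the 4 libraries were taken by distance in log2(FPKM + 1) among 13776 protein-coding genes; with 4 points a near pattern is easily found, and it says nothing of shared control. Nearest to FGF3 were ASPRV1 (distance 0.57), CLRN3 (0.63) and TOX3 (1.00). Nearest to FGF19 was ANO1 (0.61), its neighbour on chromosome 11, followed by RNF128 (0.86) and NOTUM (0.86), a secreted Wnt inhibitor. FGF2 had the largest distance to its nearest gene among the 8 members. The connexin gene GJA1 was nearest (0.91), followed by PLAT (1.39), the tissue plasminogen activator, and MMP1 (2.25), a collagenase. FGF9 was nearest to ZCCHC12 (0.13), CD33 (0.17) and GBX2 (0.26).

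FGFR1 was nearest to JMJD6 (0.42), UPP1 (0.47) and DDIT3 (0.48), and FGFR3 to RTN4R (0.33), FAM110C (0.48) and GPAT3 (0.51). FGFR4 was nearest to PDXP (0.77), TRNP1 (0.92) and PLXND1 (0.92). FGFBP1 was nearest to TFAP2C (0.57), a transcription factor of epithelia, CCNA2 (0.66) and SH3RF2 (0.69).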

How the data were processed

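Values were FPKM as deposited by the authors, for 58740 genes and 207345 transcripts in separate tables. FastQC, HISAT2 and the build hg38 are named per the submitters' processing notes; which program computed FPKM, and whether it used strand, is not given in these sources. Each table also has 1 value column that belongs to none of the samples, and it was left out. Gene types, strands, transcript lengths and exons came from GENCODE 29, which holds 58275 of the gene IDs; promoters came from RefSeq (GRCh38.p14).

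The members and gene lists were chosen with earlier results of these data known. With 1 library per line no test was made. A pseudocount of 1 FPKM was added before log2 ratios were taken, which understates changes of low genes; a call needed 4-fold and 1 FPKM or more in the higher library. Where a library lists a gene at 0, no fold of the deposited FPKM is given. Log2 ratios and calls against a listed 0 depend on the pseudocount. Fragments were estimated from the spacing of low values times transcript length; the 95% Poisson intervals built on them cover counting error only. Of the 89 list entries 87 are in the table.

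Named genes are the 9 members; of each list, genes called in all 3 cancer lines, genes that set 1 line apart, other FGF ligands and receptors at 1 FPKM or more, and otherwise up to 4 genes with the highest summed FPKM; the 3 nearest genes per member; and receptor transcripts with at least 20% of the gene. ETV1, MYEOV, TPCN2, FADD, ORAOV1, SHANK2, SPRY4, FLRT2, FLRT3 and the noncoding genes near FGF3 were named after their values were seen. Alternatives changed the pseudocount, the scaling, the fold, the minimum level and the transcripts used. Python 3.11.15, pandas 2.3.3, numpy 2.4.6, scipy 1.17.1 and matplotlib 3.10.9 were used.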

Additional observations from a re-analysis of the deposited data

Results flagged for a closer look

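FGFR1 and FGFR4 were picked out because the cancer lines lay on opposite sides of HCEC-1CT. On the log2 scale FGFR1 was -0.085 for HCT116, -1.82 for DLD-1 and 0.60 for SW620 relative to HCEC-1CT. FGFR4 was 2.52 for HCT116, -1.40 for DLD-1 and 1.96 for SW620 relative to HCEC-1CT. DLD-1 was the low line for both receptors. With 1 library per line the difference between the cancer lines was not tested.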

How the results depend on the processing

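Of 144 recomputed log2 ratios of the members 46 were counted as moved beyond counting error. Large shifts of genes listed at 0 in HCEC-1CT could fall outside the 46. With a pseudocount of 5 FPKM, FGF3 in SW620 went from 6.70 to 4.43 and was not counted as moved. Ratios of genes listed at 0 in both libraries could not move. None of the 144 took the opposite sign, which another pseudocount, or a gene listed at 0 in both libraries, could not give. Counts of called genes stayed within 1.5 times in 98 of 126 recomputations. The pathway list here is all 87 genes, with the neighbours of FGF3. Counts are given as higher or lower than HCEC-1CT. With a pseudocount of 5 FPKM, the members counted as higher numbered 1 for HCT116, 1 for DLD-1 and 2 for SW620, and 0 set HCEC-1CT below the other lines; of the pathway list 2 were higher and 2 lower in HCT116, 1 and 3 in DLD-1, and 5 and 3 in SW620. With a pseudocount of 0.1 FPKM the pathway list had 8 lower in HCT116, 7 higher and 11 lower in DLD-1, and 10 lower in SW620. With median-ratio scaling 2 members were lower in DLD-1 (FGF2 and FGFR1), and 2 genes of the list were higher there. On the TPM scale 8 genes of the list were lower in HCT116 and 11 in SW620. At 2-fold 3 members were lower in DLD-1, and the list had 20 higher and 13 lower in HCT116, 9 and 16 in DLD-1, and 18 and 17 in SW620. Asking for 5 FPKM or more in the higher library, 2 genes of the list were higher in DLD-1 and 1 member set HCEC-1CT below the other lines. With the most abundant transcript alone 2 members were lower in DLD-1 (FGF2 and FGFR4). The pseudocount, fold and minimum level act on low genes by construction; the cause of the other shifts was not tested. Over coding transcripts alone all 11 receptor transcript shares that could be recomputed moved by more than counting error; those of FGFR1-238 and FGFR3-202 stand in the report. No paired analysis was possible because each line has 1 library. No comparison has a second library, and the values of FGFR3 in HCEC-1CT, FGF2 in DLD-1 and FGFR4 in DLD-1 rest on about 12, 46 and 52 fragments.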
